A study of Mus musculus with 144 samples.

Results

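The 9 autosomes that kept 2 copies in most cells of murine T-cell acute lymphoblastic lymphoma (T-ALL) were examined cell by cell. They are Chr3, Chr6, Chr7, Chr8, Chr10, Chr11, Chr13, Chr18 and Chr19, 9 of the 19 autosomes, and they include the chromosomes of Mad2l1 (Chr6) and Trp53 (Chr11). They were chosen from the copy number states described here, as autosomes with few changed cells in either tumor, so their low rates are a description and were not tested. The states bear out the name, since 2 was the most common state of each of the 9 in all 3 animals. For the border of the choice, autosomes were ranked by the higher of their shares of changed cells in the 2 tumors. By that measure Chr18 was the highest member (6.52% in T-ALL 1, 13.6% in T-ALL 2). Chr9 was the lowest of the other autosomes (6.52% in T-ALL 1, 25.0% in T-ALL 2). In T-ALL 2 alone, Chr16 had a lower share (11.4%) than Chr9 and the member Chr18, but it was changed in 87.0% of the cells of T-ALL 1.

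Single nuclei in G1 were sorted, their DNA was digested with micrococcal nuclease, and each was sequenced as its own whole-genome library. T-ALL 1 and T-ALL 2 each came from 1 mouse with Mad2 f/f and p53 f/f alleles and Lck-Cre+, in which the Lck promoter directs Cre to T cells and deletes the floxed parts of both genes. The untransformed thymus came from 1 mouse that was Mad2 wt and p53 wt and carried no Cre (Lck-Cre-). All were of the strain C57BL/6/Sv129, and per the labels mice were watched for 3 to 4 months and sacrificed at signs of dyspnea. The study describes dyspnea in Mad2l1-mutant animals, and whether the thymus mouse showed it is not known. The thymus therefore differed from the tumors in both genes, in Cre and in transformation, and these cannot be told apart. Of the 46 nuclei sorted singly from each animal, T-ALL 1 had states for 46, T-ALL 2 for 44 and the thymus for 45. No RNA was measured, so the labelled cell type could not be checked against markers.

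Mad2, the product of Mad2l1, acts in the spindle assembly checkpoint, which holds back anaphase until the chromosomes are attached to the spindle. Cells without this checkpoint can missegregate whole chromosomes, and a missegregation leaves one daughter cell with an extra copy and the other with a missing one. p53, the product of Trp53, is a transcription factor that arrests or kills cells under stress, including after missegregation.

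The first comparison asked how often the 9 autosomes were gained or lost in each animal. A gain is a state above 2 copies and a loss a state below 2. Both tumors carried gains and losses on the 9 autosomes, whereas the thymus carried a single loss. In T-ALL 1, 24 gains and 16 losses were found among 414 calls (1 call per autosome and cell), a rate of 9.66% (exact Clopper-Pearson 95% interval 6.99% to 12.9%). In T-ALL 2 there were 15 gains and 7 losses among 396 calls, a rate of 5.56% (interval 3.51% to 8.29%). In the thymus there were 0 gains and 1 loss among 405 calls, a rate of 0.247% (interval 0.00625% to 1.37%). With a count of 0 taken to allow up to 3, the 0 gains allow a rate of up to 0.741%, which is not an exact interval. The loss was Chr18 in cell 12, the cell that also held the 1 loss of the thymus on the other 10 autosomes (Chr16). Without that cell the thymus had 0 changes on the 9. The intervals of both tumors lay above that of the thymus, but each animal is 1 sample, so there was no test between animals and no replicate check. All intervals cover counting error only, and those over calls take no account of the dependence between calls of 1 cell.

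Per cell, the number of changed autosomes among the 9 was 0.870 ± 1.28 for T-ALL 1 (SD, 46 cells), 0.5 ± 0.928 for T-ALL 2 (SD, 44 cells) and 0.0222 ± 0.149 for the thymus (SD, 45 cells). The median cell had 0 changes in every animal, and the highest had 4 in T-ALL 1, 5 for T-ALL 2 and 1 for the thymus. Gains and losses partly offset each other, and a cell of T-ALL 1 held 18.2 ± 0.980 copies of the 9 autosomes, a cell of T-ALL 2 held 18.2 ± 0.701 and a thymus cell held 18.0 ± 0.149. The rate of changed calls was 1.74 times as high in T-ALL 1 as in T-ALL 2, with overlapping intervals. That difference was mostly in the even-numbered cells, where T-ALL 1 had 13.0% of calls changed and T-ALL 2 had 5.31%. In odd-numbered cells the rates were 6.28% for T-ALL 1 and 5.82% for T-ALL 2.

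**Figure D1:**
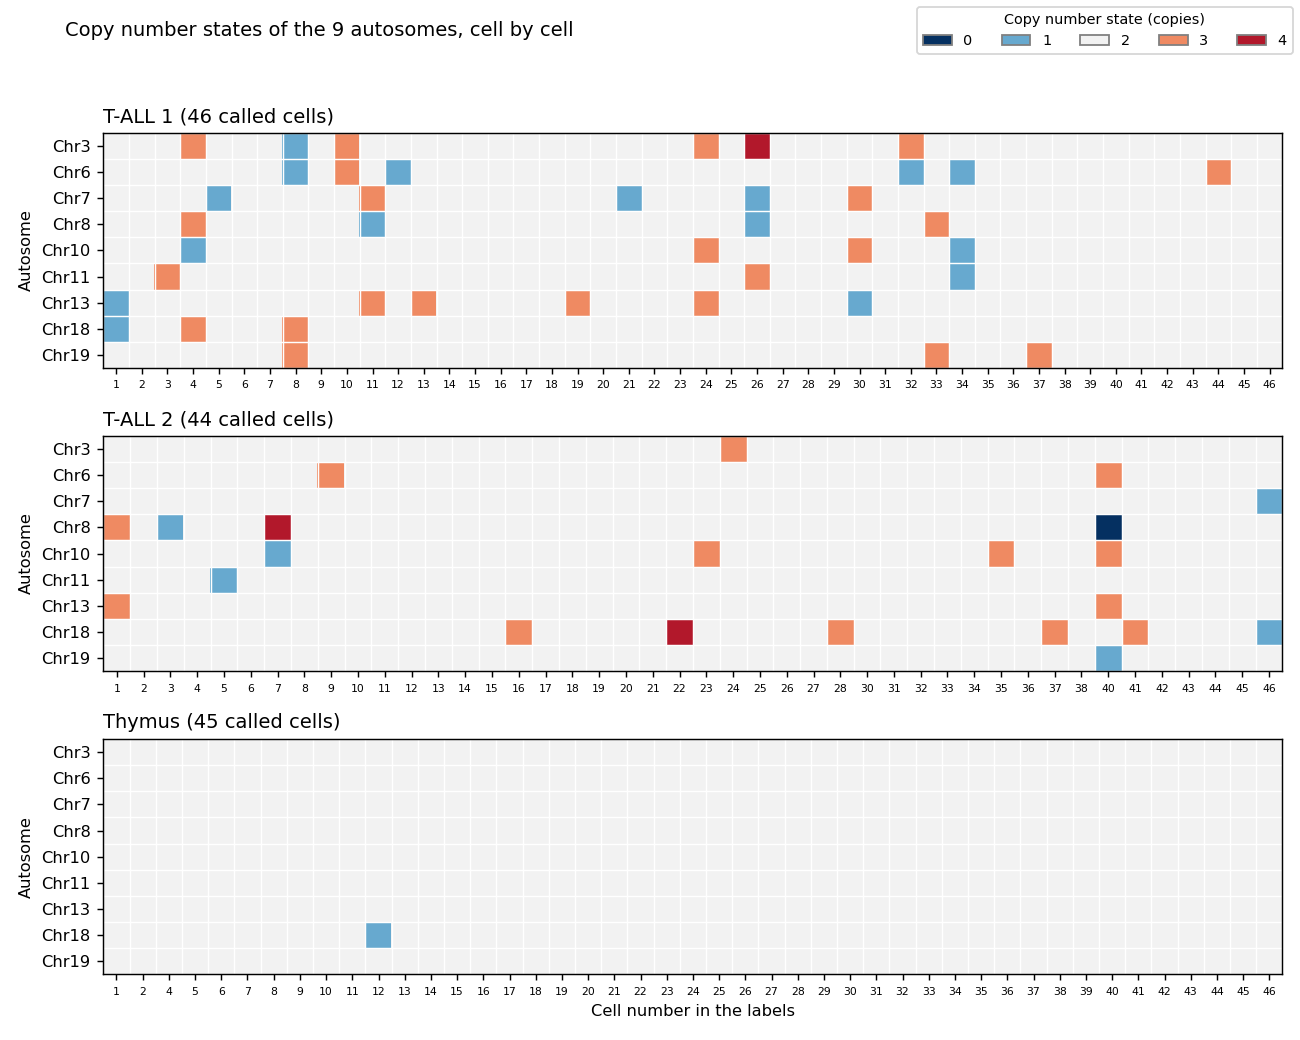
Copy number state (color, 0 to 4 copies) of each of the 9 autosomes (rows) in every called cell (columns, by cell number) of T-ALL 1, T-ALL 2 and the thymus. Changes are scattered over all 9 autosomes in both tumors, several cells carry 3 or more of them, and the thymus shows a single loss, of Chr18 in cell 12.

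Gains outnumbered losses on the 9 autosomes, though by far less than on the remaining autosomes. Gains were 60.0% of the changes on the 9 in T-ALL 1 (interval 43.3% to 75.1%) and 68.2% in T-ALL 2 (interval 45.1% to 86.1%). Both intervals include an even split of gains and losses. On the other 10 autosomes they were 97.6% of 212 changes in T-ALL 1 and 98.1% of 316 in T-ALL 2. Of the losses on all 19 autosomes, 16 of 21 in T-ALL 1 (76.2%, interval 52.8% to 91.8%) and 7 of 13 in T-ALL 2 (53.8%, interval 25.1% to 80.8%) fell on the 9, which are 47.4% of the autosomes. The same autosomes took 10.4% of all gains in T-ALL 1 and 4.62% in T-ALL 2. Since the 9 were selected for few changes and the rest include clonally gained autosomes (those whose most common state in a tumor was above 2), this contrast is fixed in part by the choice. Against 2 copies, a clonally gained autosome also counts as lost only after it has dropped by at least 2 copies.

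A narrower comparison left out the clonally gained autosomes, of which T-ALL 1 had 4 and T-ALL 2 had 7. In T-ALL 1, 5.80% of calls on the 9 were gains (interval 3.75% to 8.50%), against 19.9% on the 6 other autosomes that most often had 2 copies (interval 15.4% to 25.1%). Losses ran the other way in that tumor, with 3.86% of calls on the 9 (interval 2.22% to 6.20%) and 1.45% on those 6 (interval 0.396% to 3.67%), with overlapping intervals. In T-ALL 2, gains made up 3.79% of calls on the 9 (interval 2.14% to 6.17%) and 22.7% on the 3 other autosomes that most often had 2 copies (interval 15.9% to 30.8%). Losses made up 1.77% of calls on the 9 in T-ALL 2 (interval 0.714% to 3.61%) and 2.27% on those 3 (interval 0.471% to 6.50%), again with overlap. These values are a description, since the choice of the 9 used gains and losses. It set the other autosomes apart by their higher share of changed cells in at least 1 tumor.

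The second comparison asked which of the 9 autosomes were affected. Each of them was changed in at least 1 cell of each tumor, and no member stood out in both. The share of changed cells was between 6.52% (3 of 46 cells, interval 1.37% to 17.9%) and 13.0% (6 of 46 cells, interval 4.94% to 26.3%) in T-ALL 1. It was between 2.27% (1 of 44 cells, interval 0.0575% to 12.0%) and 13.6% (6 of 44 cells, interval 5.17% to 27.4%) in T-ALL 2. Within each tumor the intervals of the 9 overlapped, so that no order among them could be read. Set against the thymus, 0 of the 9 autosomes had an interval for changed cells that did not overlap in T-ALL 1, and 0 of the 9 in T-ALL 2, where over all 19 autosomes 47.4% did so in each tumor. The choice of the members fixes this contrast. The thymus interval for an autosome changed in 0 of 45 cells reached 7.87%.

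Chr3 and Chr13 had more gains than losses in T-ALL 1. Chr3 was gained in 5 of 46 cells and lost in 1, with 1 of the gains at 4 copies, and in T-ALL 2 it was gained in 1 of 44 cells. Chr3 carries Cenpe, a kinetochore motor, the RAS oncogene Nras, Fbxw7, whose ubiquitin ligase degrades Notch and Myc, and Lef1, a T-cell transcription factor. Chr13 was gained in 4 cells and lost in 2 in T-ALL 1, and gained in 2 cells and lost in 0 in T-ALL 2. It carries Trip13, an ATPase that remodels Mad2, Ccnb1 (cyclin B1), the transcription factor gene Mef2c and the T-cell receptor gamma locus, Tcrg.

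Chr18 stood highest in T-ALL 2, with 5 gains and 1 loss among 44 cells and a mean of 2.11 ± 0.443 copies (SD over cells). In T-ALL 1 it had 2 gains and 1 loss among 46 cells and a mean of 2.02 ± 0.257 copies. Chr18 carries Pmaip1, which encodes the p53 target Noxa, and the phosphatase gene Ptpn2. It was also the sole member changed in the thymus, at 1 copy in cell 12.

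Chr8 and Chr10 were both gained and lost in each tumor. Chr8 had 2 gains and 2 losses in each tumor. In T-ALL 2 its states ran over the whole range seen, with 0 copies in cell 40, 1 in cell 3, 3 in cell 1 and 4 in cell 7, and its mean was 2.00 ± 0.482 copies, or 2.05 ± 0.375 without cell 40. The 0 copies in cell 40 were the only state of 0 among the 9 autosomes. Chr10 had 2 gains and 2 losses in T-ALL 1, and 3 gains and 1 loss in T-ALL 2. Chr8 carries Lyl1, a transcription factor of T-cell leukemia, and the kinase gene Jak3. Chr10 carries Cdk1, the mitotic kinase, Mdm2, the ubiquitin ligase that degrades p53, Apaf1 of the apoptosome and the p53 target Sesn1.

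Chr7 and Chr19 were each changed in 1 cell of T-ALL 2, by a loss. Chr7 had 2 gains and 3 losses in T-ALL 1, and 0 gains and 1 loss in T-ALL 2. It carries the checkpoint gene Bub3, the mitotic kinase gene Plk1 and the p53 targets Bax and Bbc3, both of them proapoptotic. Chr19 had 3 gains and 0 losses in T-ALL 1, and 0 gains and 1 loss in T-ALL 2. It carries Incenp of the chromosomal passenger complex, the death receptor gene Fas and the oncogene Tlx1.

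**Figure D2:**
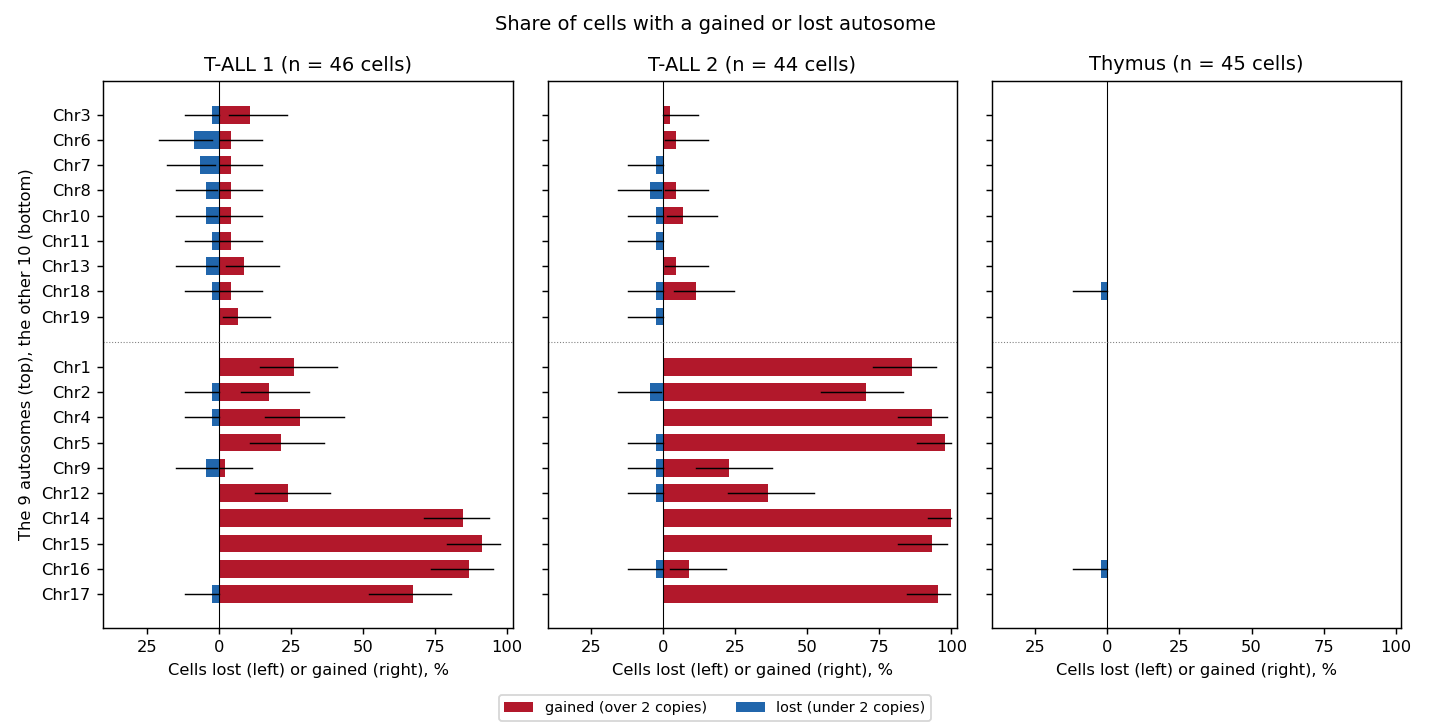
Share of cells (%) in which each autosome was gained (bars to the right) or lost (bars to the left) in T-ALL 1, T-ALL 2 and the thymus, with exact 95% intervals as black lines where the share is above 0. The 9 autosomes are above the dotted line, where gains and losses are both seen and no member exceeds 13.6% of cells changed, and the other 10 are below it, where gains prevail.

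The chromosomes of the 2 deleted genes were then examined. Mad2l1 lies on Chr6 (mm10 chromosome 6, 66535221 to 66541107) and Trp53 on Chr11 (mm10 chromosome 11, 69580348 to 69591873). Neither chromosome was clonally gained or lost. Chr6 averaged 1.96 ± 0.362 copies in cells of T-ALL 1 (SD, 46 cells) and 2.05 ± 0.211 in cells of T-ALL 2 (SD, 44 cells). Chr11 averaged 2.02 ± 0.257 copies in the cells of T-ALL 1 and 1.98 ± 0.151 in those of T-ALL 2. Each thymus cell with a call had 2 copies of both. All of these means lay close to 2, which the choice of the members requires.

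In T-ALL 1, Chr6 was lost in cells 8, 12, 32 and 34 and gained in cells 10 and 44. In T-ALL 2 it was gained in cells 9 and 40 and lost in none. Chr6 was thus the member with the most losses in T-ALL 1 (4 of 46 cells, against 3 for Chr7). Its gains and losses together (6 cells) equalled those of Chr3 and Chr13. Of the cells with a Chr6 loss, cells 8, 32 and 34 each had 10 autosomes not at 2. Without cells with 10 or more autosomes not at 2, Chr6 averaged 2.02 copies in each tumor. Chr11 was gained in cells 3 and 26 and lost in cell 34 of T-ALL 1, and was lost in cell 5 of T-ALL 2. Cell 34 of T-ALL 1 was the only cell with a loss of both. A state is that of a whole chromosome, so the Cre-mediated deletion within Mad2l1 or Trp53 is not seen in these values, and a cell with 2 copies of Chr6 or Chr11 may lack either gene product.

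Gene lists were placed on the 9 autosomes, which hold 9837 of 20665 autosomal protein-coding genes (47.6%). Of 29 spindle checkpoint and kinetochore genes, 12 lay on the 9, as did 10 of 20 genes of the p53 pathway, 13 of 30 T-ALL oncogenes, 12 of 24 T-ALL tumor suppressors and 6 of 17 T-cell receptor and coreceptor genes. Chr11 carries 4 genes of the spindle checkpoint and kinetochore list. They are Spdl1, which recruits dynein to kinetochores, Aurkb and Birc5 of the chromosomal passenger complex and the securin gene Pttg1. Chr6 carries, beside Mad2l1, the p53 target Gadd45a and the homeobox genes Hoxa9 and Hoxa10. All genes of a chromosome share its copy number in these tables, so the 53 listed genes rest on 9 values per cell.

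The third comparison asked whether changes were spread evenly over cells. A minority of the cells of T-ALL 1 carried most of its changes. Some such concentration follows from its low mean of 0.870 changes per cell alone. At least 1 of the 9 autosomes was changed in 41.3% of the cells of T-ALL 1 (19 of 46, interval 27.0% to 56.8%). The share was 34.1% for T-ALL 2 (15 of 44, interval 20.5% to 49.9%) and 2.22% for the thymus (1 of 45, interval 0.0562% to 11.8%). In T-ALL 1, 27 cells had no change, 8 had 1, 4 had 2, 4 had 3 and 3 had 4. The 11 cells with 2 or more changes (23.9%, interval 12.6% to 38.8%) held 32 of 40 changes (80.0%). In T-ALL 2, 29 cells had no change, 11 had 1, 3 had 2 and 1 had 5. The 4 cells with 2 or more (9.09%, interval 2.53% to 21.7%) held 11 of 22 changes.

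The variance of changes per cell divided by their mean is 1 where changes fall on cells independently and at one low rate, and above 1 where they gather in few cells. It was 1.87 in T-ALL 1, and 1.795 to 1.935 when each cell was left out in turn, but 1.26 in its odd-numbered and 2.06 in its even-numbered cells. It was 1.72 in T-ALL 2, but this value rested on cell 40. Without cell 40, a choice made after seeing the data, the ratio was 0.980, with 17 changes (12 gains and 5 losses) in 43 cells and a highest count of 2, and cells with 2 or more changes then held 35.3% of them. With 1 change among 45 thymus cells the ratio carries no information there.

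**Figure D3:**
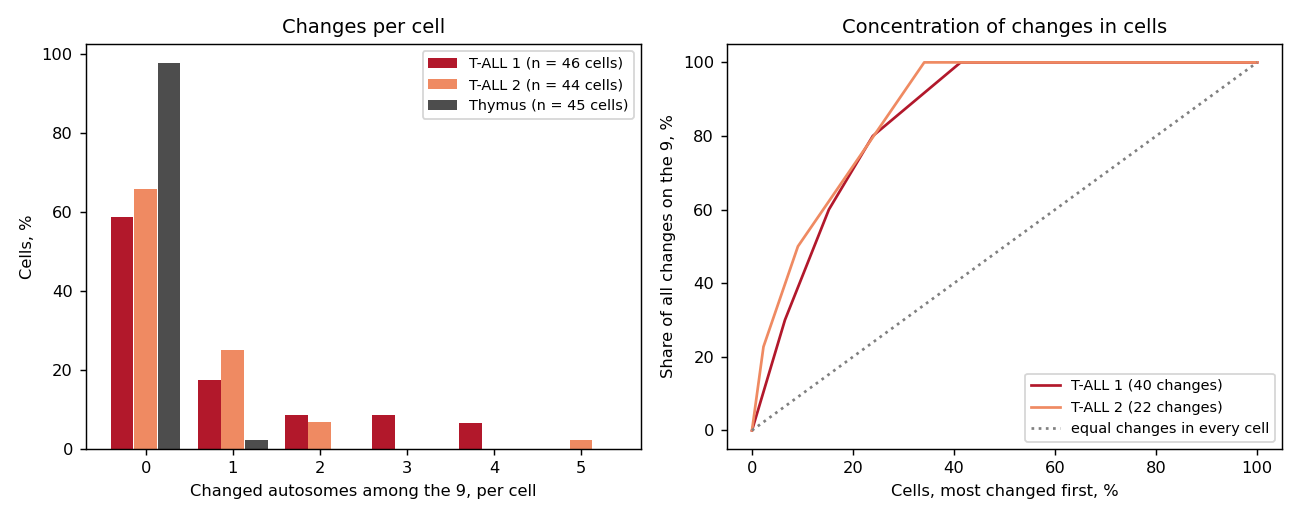
Left, percent of cells of T-ALL 1, T-ALL 2 and the thymus (bars) with 0 to 5 changed autosomes among the 9. Right, cumulative share of all changes against the share of cells, most changed cells first (lines), with a dotted line for equal changes in every cell. With a mean below 1 change per cell, that dotted line cannot be reached. In T-ALL 1, 80.0% of the changes lie in 23.9% of the cells, and in T-ALL 2, 54.5% lie in the 5 most changed cells.

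Most of the cells with 3 or more changes combined gains with losses. In T-ALL 1, cell 4 had 3 copies of Chr3, Chr8 and Chr18 and 1 copy of Chr10. Cell 8 had 1 copy of Chr3 and Chr6 and 3 copies of Chr18 and Chr19. Cell 26 had 4 copies of Chr3, 3 of Chr11 and 1 each of Chr7 and Chr8. These 3 cells, with 4 changes each, thus had different chromosomes changed, and Chr3 was the only one changed in all of them.

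A further 4 cells of T-ALL 1 had 3 changes. Cell 11 had 3 copies of Chr7 and Chr13 and 1 of Chr8, and cell 30 had 3 copies of Chr7 and Chr10 and 1 of Chr13. Cell 24 had gains alone, with 3 copies of Chr3, Chr10 and Chr13, whereas cell 34 had losses alone, with 1 copy of Chr6, Chr10 and Chr11. In T-ALL 2, cell 40 had 3 copies of Chr6, Chr10 and Chr13, 1 of Chr19 and 0 of Chr8, and 14 of its 19 autosomes were not at 2. Cell 7 had 4 copies of Chr8 and 1 of Chr10, and cell 22 had 4 copies of Chr18 and no other change on the 9. Among all changed cells, gains alone were found in 8, losses alone in 5 and both in 6 of the 19 in T-ALL 1. In T-ALL 2, gains alone were found in 10, losses alone in 3 and both in 2 of the 15.

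A pattern of changes was shared with another cell by 4 of the 19 changed cells of T-ALL 1 and 6 of the 15 of T-ALL 2. The states over the 9 autosomes formed 18 distinct patterns for T-ALL 1, 12 for T-ALL 2 and 2 for the thymus, counting the pattern with 2 copies throughout. In T-ALL 1, 15 patterns were found in 1 cell each, and the shared ones were a lone loss of Chr7 (2 cells) and a lone gain of Chr13 (2 cells). In T-ALL 2, 9 patterns were found in 1 cell each, and the shared ones were a lone gain of Chr18 to 3 copies (4 cells) and a lone gain of Chr10 (2 cells). No pattern with 2 or more changes on the 9 was found in more than 1 cell.

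Of the 36 pairs among the 9 autosomes, 26 were changed together in at least 1 cell of T-ALL 1 and 11 in T-ALL 2. The most frequent was Chr3 with Chr6, in 3 cells of T-ALL 1, once both gained, once both lost and once in opposite directions. Summed over pairs, both members were gained 12 times, both lost 6 times and changed in opposite directions 16 times in T-ALL 1. For T-ALL 2 these counts were 4, 2 and 7, most of them from cell 40. Without cell 40 they were 1, 1 and 1, and 3 pairs were changed together. In T-ALL 1, most of the counts came from the 7 cells with 3 or more changes.

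The last comparison asked whether cells with changes on the 9 also deviated on the other 10 autosomes, which the choice of members did not settle. On the other 10 a deviation is any state other than the most common one of that autosome in the tumor. Across cells, Pearson's r between the 2 counts was 0.530 in T-ALL 1 (Spearman's rho 0.591, 46 cells) and 0.533 in T-ALL 2 (rho 0.275, 44 cells). These are descriptions without a test, since the cells of a tumor share an animal and a lineage and the calls of a cell share a library of unknown depth. Without cell 40, r in T-ALL 2 was 0.273 and rho was 0.209.

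The relation differed between the tumors by which of the other autosomes were used. In T-ALL 1 it was seen with the 6 other autosomes that most often had 2 copies (r = 0.584, rho = 0.683, 46 cells), and was near 0 with the 4 clonally gained ones (r = 0.0559, rho = 0.0777). Cells 25, 27 and 41 of T-ALL 1 had 2 copies of all 19 autosomes, and thus 4 deviations on the clonally gained ones. Cell 38 also had 4 deviations there and 0 changes on the 9, with 1 of its 19 autosomes not at 2. Such cells can pull down the r with the clonally gained autosomes, and cells 25, 27 and 41 can raise that with the 6. Neither r was computed without these cells, so how far the value near 0 rests on them was not tested. Without cells 25, 27 and 41, the r with all the other 10 was 0.588 in T-ALL 1, against 0.530 with them. Of the 19 cells of T-ALL 1 with a change on the 9, 18 also had a change on those 6 (94.7%, interval 74.0% to 99.9%), and cell 30 was the exception. Of its 27 cells with 2 copies of all 9, 9 had such a change (33.3%, interval 16.5% to 54.0%). In T-ALL 2, r was 0.506 with the 7 clonally gained autosomes (rho 0.358) and 0.184 with the other 3 (rho 0.0217), and without cell 40 these values were 0.321 and -0.0133. There, 8 of 15 cells with a change on the 9 (53.3%, interval 26.6% to 78.7%) and 17 of 29 cells without one (58.6%, interval 38.9% to 76.5%) had a change on the other 3. The shares are not like for like, because a change could fall on 6 autosomes in T-ALL 1 and on 3 in T-ALL 2. The 27 cells of T-ALL 1 also include cells 25, 27 and 41, which had no change anywhere. The difference between the tumors in these values was not tested.

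Complete sets of clonal gains were compared as well. In T-ALL 1, a change on the 9 was found in 11 of 27 cells that had all 4 clonal gains (40.7%, interval 22.4% to 61.2%) and in 8 of 19 cells that lacked at least 1 (42.1%, interval 20.3% to 66.5%). In T-ALL 2 it was found in 7 of 25 cells with all 7 clonal gains and in 8 of 19 cells without. The 3 cells of T-ALL 1 with 2 copies of all the other 10 autosomes had 0 changes on the 9, and whether they were normal cells cannot be told from the states.

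**Figure D4:**
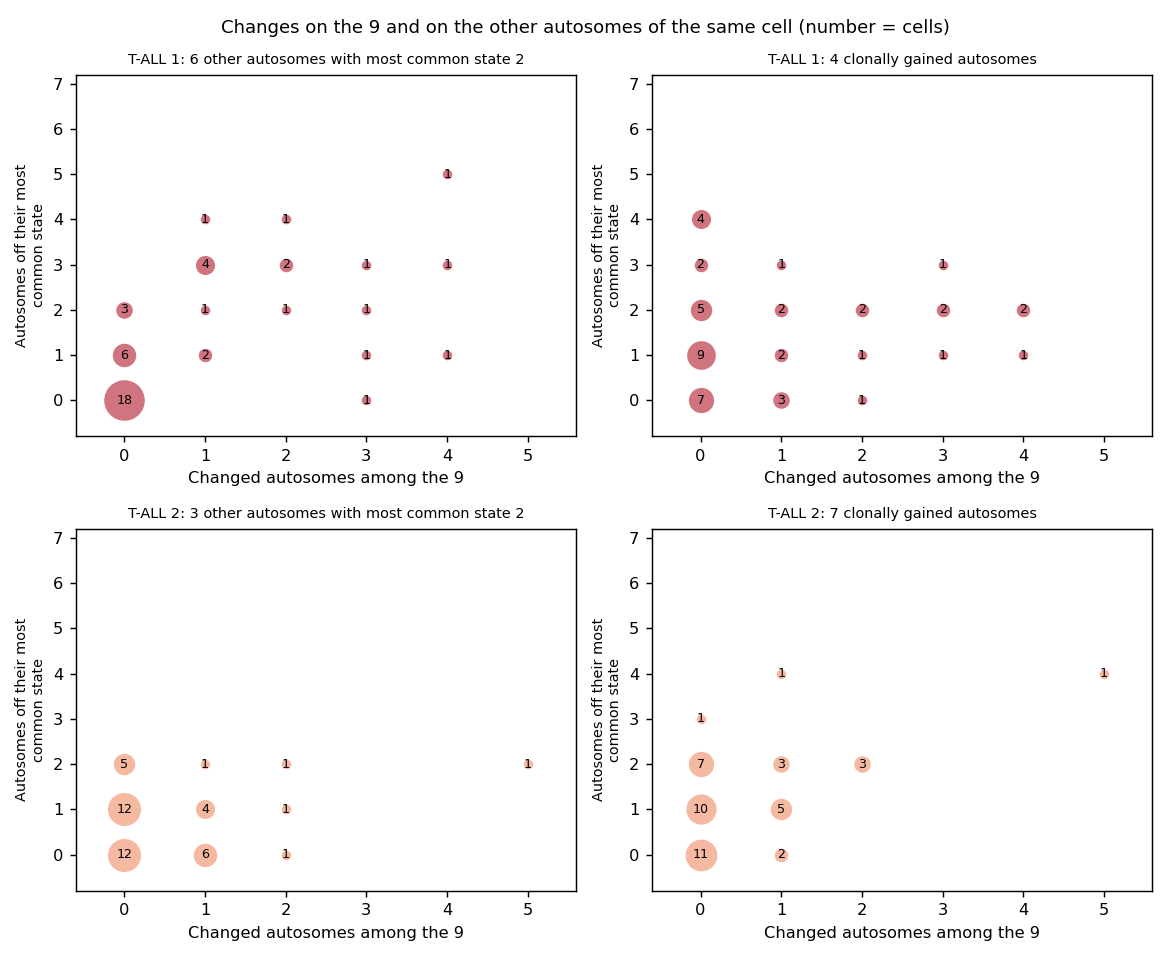
Number of changed autosomes among the 9 (x axis) against the number of other autosomes away from their most common state (y axis) in cells of T-ALL 1 (top) and T-ALL 2 (bottom), for the other autosomes that most often had 2 copies (left) and the clonally gained ones (right). Disc area and the printed number give the cells at each point; in T-ALL 1, 18 cells sit at 0 on both axes of the left panel, and 1 cell with a change on the 9 sits at 0 on its y axis.

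Wells sorted with 10 nuclei and with none accompanied each animal. The 10-cell wells of T-ALL 2 and the thymus had 2 copies of all 9 autosomes. That of T-ALL 1 had 2 copies of 8 of them and 3 copies of Chr11, against a single-cell mean of 2.02 ± 0.257 (SD over 46 cells). The 10-cell wells of both tumors also departed from the most common single-cell state on some of the other autosomes. The wells without nuclei had 0 calls.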

How the data were processed

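Each of 138 wells with 1 nucleus was sequenced, 46 per animal, beside 3 wells with 10 nuclei and 3 with none. The authors deposited 1 table per animal that holds whole-number copy number states by chromosome and well, and the autosomal states were used as deposited. Tools in the submitters' processing notes are bcl2fastq 1.8.2, Bowtie2 2.1.0 and SAMtools 0.1.18, with mm10 as the build. The study's methods name AneuFinder for the single-cell data, with no version given in the sources used here. The tables hold no read counts, so depth is unknown, and a part of a chromosome cannot be resolved. Rows were matched to samples by name, with 0 unmatched, and 3 wells with dashes (cells 29 and 39 of T-ALL 2, cell 3 of the thymus) were left out. X and Y were not used.

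The 9 autosomes and the gene lists were chosen with earlier results of these data known. States were compared with 2. Shares have exact Clopper-Pearson 95% intervals, and a count of 0 allows up to 3. No test was made, because each group is 1 animal and the members were selected on these states. Cells were named when they had 3 or more changes on the 9, a state of 0 or at least 4 there, or, in the thymus, any change, and for Chr6 and Chr11. Up to 4 listed genes were named per chromosome in list order, with Mad2l1 and Trp53 in any case, and 1 listed gene is not reported here. Cells singled out otherwise were chosen after their values were seen. All 120 listed genes matched the RefSeq annotation of GRCm38.p6, the assembly of mm10, by symbol or synonym. Alternatives changed the reference state, the cells, the autosomes and the weights. Python 3.11.15, NumPy 2.4.6, SciPy 1.17.1 and Matplotlib 3.10.9 were used, and the code was tested on simulated states.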

Additional observations from a re-analysis of the deposited data

Results flagged for a closer look

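The 10-cell well of T-ALL 1 was called at 3 copies of Chr11, the chromosome of Trp53, against 2 copies in the 10-cell well of the thymus. Among the single cells of that tumor 2 of 46 had 3 copies of Chr11. Such a mismatch was not particular to Chr11. In T-ALL 1 the well had 3 copies of Chr4 and 4 of Chr17, where single cells most often had 2 and 3. In T-ALL 2 the well had 2 copies of Chr5 and 3 of Chr14, where single cells most often had 3 and 4. The well is outside the single-cell comparisons and its state was above that of the thymus well, and the cause was not tested.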

How the results depend on the processing

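Depth is unknown and each group is 1 animal, so counting error and the choice of cells set the limits. Leaving out cells with 10 or more autosomes not at 2, cells with 2 copies of the other 10 autosomes, or single autosomes, and counting copies or weighting by length, kept the rate and the share of changed cells on the 9 within their main intervals in both tumors. The rate in T-ALL 1 was 6.28% in odd-numbered and 13.0% in even-numbered cells. In the thymus, the rate and the share on the 9 and the rate on the other 10 were 0 in odd-numbered cells, and without Chr18 the first 2 were also 0. Leaving out each thymus cell in turn gave 0 to 0.253%, 0 to 2.27% and 0 to 0.227% for these 3 values, with 0 for cell 12. On the other 10 autosomes, the rate with the most common state as reference was 27.6% for T-ALL 1 and 19.3% for T-ALL 2. When copies were counted it was 57.8% for T-ALL 1 and 85.7% for T-ALL 2, and 41.1% in T-ALL 1 when weighted by length.

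The variance over mean in T-ALL 2 was 0.932 without cells with 10 or more autosomes not at 2, 0.882 in odd-numbered cells, 2.64 in even-numbered cells and 0.980 without cell 40, and 0.980 to 1.79 when each cell was left out in turn. Its r with deviations on the other 10 was 0.228 without the first of these sets of cells, 0.109 with 2 copies as the reference there, 0.273 without cell 40, and 0.273 to 0.575 over single cells left out. The sign of T-ALL 1 minus T-ALL 2 turned for the share of changed cells in odd-numbered cells (-3.73 percentage points). It turned for the variance over mean in even-numbered cells (-0.572), without Chr3 (-0.272), without Chr18 (-0.494) and when copies were counted (-0.155). No paired analysis was possible because the cell numbers name wells and the results come from no test.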
